A study of Homo sapiens with 6 samples.

Results

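The proteasome genes described here are the rows of an expression table whose symbols are PSMA, PSMB, PSMC, PSMD, PSME, PSMF or PSMG followed by a number. There were 48 such genes among 57150 rows, and no symbol was repeated. Of these, 46 averaged 1 FPKM or more across all 6 libraries and could be tested. FPKM counts sequenced fragments per kilobase of transcript, scaled to the mapped fragments of the library, so levels of different genes can be compared per length. RNA was taken from the human cancer cell line MDA-MB-435, in 3 libraries labelled ZCCHC24 KD (knockdown) and 3 labelled ZCCHC24 CTRL (control). ZCCHC24 encodes a zinc finger protein of the CCHC type. No treatment time, further allele or agent is given in the labels; the knockdown reagent and the treatment of the controls were not given in the sources used here. No source tells whether the libraries of a group are separate cultures, and the p-values therefore measure a spread that may be technical.

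The proteasome degrades proteins that carry ubiquitin chains. Its barrel-shaped core is built from alpha subunits (PSMA), which form the outer rings and gate the entrance, and beta subunits (PSMB), which form the inner rings and hold the proteolytic sites. A cap docks on the alpha ring: its base contains the ATPases (PSMC) that unfold substrates, and its lid (most PSMD proteins) removes the ubiquitin. Alternative activators (PSME) open the core without the ATPases, and dedicated chaperones assemble the core (PSMG) and the base (PSMD5, PSMD9 and PSMD10). In cells exposed to interferon, the immuno subunits PSMB8, PSMB9 and PSMB10 replace the constitutive catalytic subunits, which changes the peptides made for antigen presentation.

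ZCCHC24 itself was at 1.54, 1.69 and 1.81 FPKM in the knockdown libraries, against 12.7, 12.3 and 13.2 FPKM in the controls (log2 fold change -2.36 ± 0.075, limma adjusted p 1.5e-07). The targeted gene was thus low in all libraries labelled KD and high in all labelled CTRL. The labels give breast as the tissue, whereas all 9 melanocyte lineage markers of a list reached a mean of 1 FPKM, summing to 1494 to 1559 FPKM in the knockdown libraries and 2158 to 2259.6 FPKM in the controls. Of 9 breast epithelial markers 5 reached that level, KRT5 was listed at 0 in all 6 libraries, and the list summed to 140.3 to 149 FPKM in the knockdown libraries and 98.3 to 115 FPKM in the controls, mostly KRT18 and KRT8. As background, genotyping has assigned the line to a melanoma. Libraries correlated at r of 0.986 to 0.988 within a group and 0.927 to 0.932 between groups on log2(FPKM + 1). The steps between the lowest values put the relative depths of the libraries within a factor of 1.26; the absolute depth is unknown.

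After knockdown the proteasome genes moved in both directions, and few classes moved as one. The immuno subunits and the PSMG core assembly chaperones fell, PSMG3 only narrowly. Most cap ATPases rose, and the constitutive rings and the lid were split. In the sentences that follow, a fold change is knockdown minus control on log2(FPKM + 1) ± the standard error of the fit, and a gene rose or fell if its limma adjusted p, corrected by Benjamini-Hochberg over all 13343 tested genes, was below 0.05. Of the 46 tested members 20 rose, 19 fell and 7 did not pass. Together 39 members (84.8%) passed, but 72.4% of all tested genes did as well, with 37% higher and 35.4% lower. The 2 groups did not overlap for 22 members that lay higher and 19 that lay lower after knockdown, where 75.9% of all tested genes were separated in this way (38.7% higher and 37.2% lower). The median absolute change was 0.38 among the members and 0.41 among all tested genes, so as a whole the family did not stand out in size. Changes of at least 0.5 were found for 4 members that rose and 10 that fell, where 19.8% and 20.6% of all tested genes rose and fell by that much. The summed level of all 48 genes was 5496, 5436 and 5462 FPKM in the knockdown libraries, against 5451, 5209 and 5391 FPKM in the controls. The ratio was 1.02, so on this scale the total hardly differed while its composition did. Total FPKM per library was 681922 to 696942 in the knockdown libraries, against 717545 to 733644 in the controls. The ratio of 1.02 therefore depends on the scaling of the libraries. In bulk RNA, a lower level in every cell and a smaller share of expressing cells cannot be told apart.

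**Figure D1:**
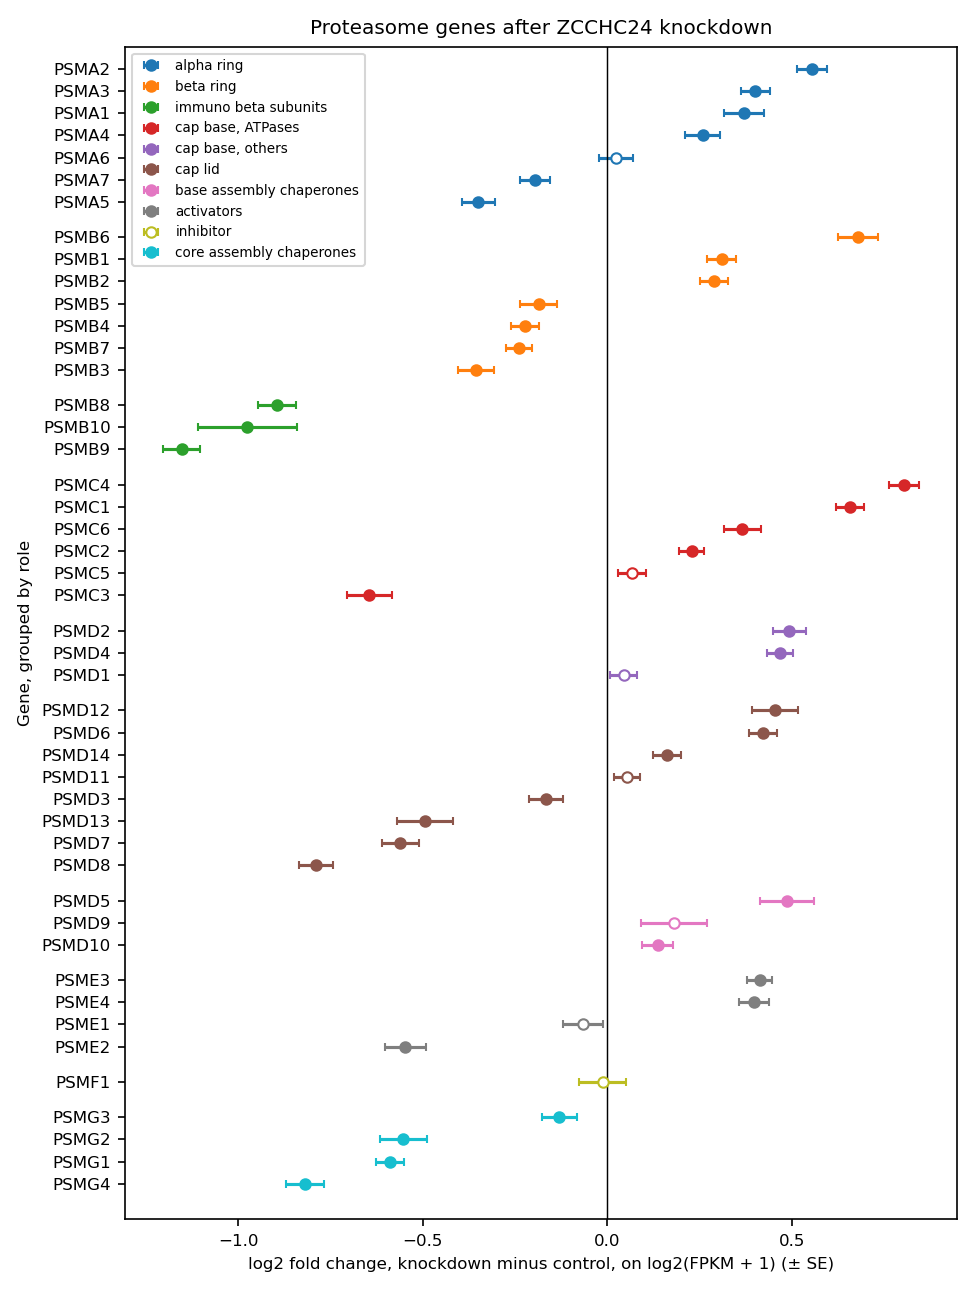
Log2 fold change (knockdown minus control, on log2(FPKM + 1)) of the 46 tested proteasome genes, grouped by role; points are estimates from 3 against 3 libraries, bars are ± 1 standard error, and open points did not pass a limma adjusted p of 0.05. The 3 immuno subunits and the 4 core assembly chaperones all lie left of zero, whereas the other roles with more than 1 member spread to both sides or to the right.

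The 3 largest falls of the family were those of the immuno subunits. PSMB9 (ENSG00000240065), which takes the place of PSMB6, had 19.0, 17.6 and 17.6 FPKM in the knockdown libraries, against 42.5, 41.5 and 40.2 FPKM in the controls. That was a 2.29-fold lower mean (log2 fold change -1.15 ± 0.050, limma adjusted p 4.7e-07), the largest change of any member. PSMB10 (ENSG00000205220), which takes the place of PSMB7, had 23.1, 20.7 and 18.3 FPKM in the knockdown libraries, against 48.4, 33.6 and 43.9 FPKM in the controls; the controls were unequal, with control 2 the lowest, yet the groups did not overlap (log2 fold change -0.98 ± 0.13, limma adjusted p 0.00024). PSMB8 (ENSG00000204264), which takes the place of PSMB5, had 44.6, 43.4 and 39.96 FPKM in the knockdown libraries, against 81.5, 76.9 and 81.7 FPKM in the controls (log2 fold change -0.89 ± 0.052, limma adjusted p 1.9e-06). All 3 tested immuno subunits therefore lay lower in every knockdown library than in any control library. PSMB11, the subunit of the thymic cortex, was near 0, with at most 0.0426 FPKM in any library, and was not tested. Markers of immune cells (PTPRC, CD3E and CD14) summed to 0.372 to 0.513 FPKM in the knockdown libraries and 0.293 to 0.574 FPKM in the controls, with CD3E listed at 0 in all 6 libraries.

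Their constitutive counterparts did not move as a block. PSMB6, which carries the caspase-like activity, rose to 282, 262 and 262 FPKM in the knockdown libraries, against 179.9, 161 and 161 FPKM in the controls (log2 fold change 0.68 ± 0.054, limma adjusted p 9.6e-06). PSMB5, which carries the chymotrypsin-like activity, fell slightly and had 110.3, 109 and 109 FPKM in the knockdown libraries, against 130.4, 115 and 129 FPKM in the controls (log2 fold change -0.19 ± 0.051, limma adjusted p 0.01). PSMB7, which carries the trypsin-like activity, also fell and had 249, 253 and 262 FPKM in the knockdown libraries, against 296, 298 and 309 FPKM in the controls (log2 fold change -0.24 ± 0.036, limma adjusted p 0.00039). For none of the 3 did the groups overlap, but the change was larger for PSMB6 than for the other two.

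An immuno subunit and the one it replaces compete for the same place in the ring, so their levels were also set against each other. A ratio of 2 rows of one library does not depend on the scaling of that library. The FPKM ratio of PSMB9 to PSMB6 was 0.0676, 0.0673 and 0.0670 in the knockdown libraries, against 0.236, 0.257 and 0.250 in the controls, a log2 difference of -1.88. PSMB8 to PSMB5 gave ratios of 0.404, 0.397 and 0.367 in the knockdown libraries, against 0.625, 0.667 and 0.635 in the controls, a log2 difference of -0.72. For PSMB10 to PSMB7 the ratios were 0.0927, 0.0820 and 0.0699 in the knockdown libraries, against 0.164, 0.113 and 0.142 in the controls, a log2 difference of -0.77. Each of the 3 ratios was lower in all knockdown libraries than in all controls, and a two-sided exact permutation test gave p = 0.1 for each (adjusted over the 3 ratios, 0.1), the smallest that 3 against 3 libraries allow.

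**Figure D2:**
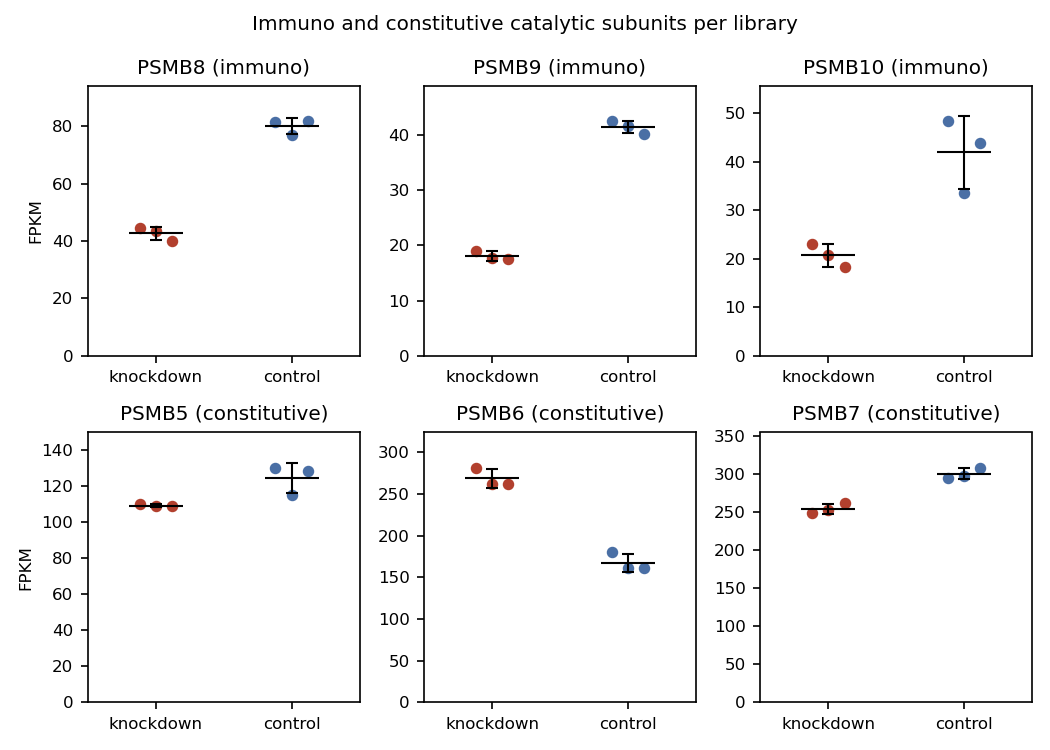
FPKM per library of the immuno subunits PSMB8, PSMB9 and PSMB10 (upper row) and of the constitutive catalytic subunits they replace, PSMB5, PSMB6 and PSMB7 (lower row); points are libraries, horizontal lines are means and bars are ± 1 SD, n = 3 per group. The immuno subunits are lower after knockdown in each panel, while PSMB6 is higher and PSMB5 and PSMB7 are modestly lower.

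PSMB8 and PSMB9 are listed at the same locus (hg19 chromosome 6, 32808493 to 32827362), together with the peptide transporter gene TAP1. TAP1 was at 21.9, 21.1 and 20.7 FPKM in the knockdown libraries, against 22.2, 20.8 and 22.3 FPKM in the controls, and did not pass (log2 fold change -0.034 ± 0.050, limma adjusted p 0.56), and the change of its neighbours was not seen in its row. In RefSeq (GRCh38.p14) the starts of TAP1 and PSMB9 lie 487 bases apart on opposite strands. Of 4 interferon and antigen-processing genes read for comparison (IRF1, NLRC5, TAP1 and TAP2), TAP2 fell (log2 fold change -0.31 ± 0.075, limma adjusted p 0.0055) and the other 3 did not pass. The median log2 fold change of all 4 was -0.054. IRF1 and NLRC5 were weak rows, with means of 4.80 and 3.55 FPKM in the knockdown libraries and 5.01 and 3.69 FPKM in the controls. Their standard errors were 0.12 and 0.097, and the scale understates changes of weak genes. The median therefore does not tell whether interferon-related genes as a group changed.

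Promoter windows from 250 bases before to 50 bases after the start were found in RefSeq for 42 of the 48 members (40 of them tested) and were searched on both strands for GAAA, any 2 bases and GAAA again, the core of the interferon-stimulated response element. It was present for 5 of 16 members that fell (PSMB4, PSMB8, PSMB10, PSME2 and PSMG4), for 1 of 17 that rose (PSMA4) and for 1 of 7 that did not pass (PSME1), against 4.38% of the 27305 genes with a window. PSMB9, the member that fell most, had a window but no match. The 27305 genes include ones not tested here, and windows per gene and base content were not matched to the members. A match describes letters, not binding. The stretches around the match (capitals) are shown for 2 immuno subunits that hold one, for the activator gene PSME2 and for TAP1, because these genes are classed as interferon-inducible and yet differed in their change. They are given 5′ to 3′ on the strand of the gene, on GRCh38.p14. The match of PSMB8 and of TAP1 is on the opposite strand and therefore reads as its reverse complement. Capitals mark the first match only. In TAP1 the closing TTTC of that match starts a second, overlapping one, which reads TTTCGCTTTC as in PSMB8.
PSMB8 (chr6:32844028-32844091, minus strand): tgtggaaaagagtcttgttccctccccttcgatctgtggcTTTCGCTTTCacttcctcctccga
PSMB10 (chr16:67936831-67936911, minus strand): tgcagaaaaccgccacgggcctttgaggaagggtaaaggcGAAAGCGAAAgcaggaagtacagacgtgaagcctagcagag
PSME2 (chr14:24146591-24146678, minus strand): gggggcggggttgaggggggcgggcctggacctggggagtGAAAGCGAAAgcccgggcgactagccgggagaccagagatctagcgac
TAP1 (chr6:32853789-32853878, minus strand): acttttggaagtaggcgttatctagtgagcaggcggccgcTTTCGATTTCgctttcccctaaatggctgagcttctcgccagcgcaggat

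The 4 PSMG chaperones, which build the core, fell, whereas of the 3 PSMD chaperones of the cap's base 2 rose and 1 did not pass; the contrast holds for the PSM-named genes alone, since PAAF1 and POMP, described after them, went the other way. PSMG1 and PSMG2 form one dimer and PSMG3 and PSMG4 another, and both dimers guide the assembly of the alpha ring. PSMG4 (ENSG00000180822) had 20.7, 19.4 and 21.4 FPKM in the knockdown libraries, against 35.6, 37.7 and 37.4 FPKM in the controls (log2 fold change -0.82 ± 0.052, limma adjusted p 2.9e-06). PSMG1 (ENSG00000183527) had 72.1, 74.0 and 72.7 FPKM in the knockdown libraries, against 108, 109 and 114 FPKM in the controls (log2 fold change -0.59 ± 0.038, limma adjusted p 3.2e-06). For PSMG2 (ENSG00000128789) the values were 15.3, 15.7 and 16.1 FPKM in the knockdown libraries, against 24.6, 24.6 and 21.5 FPKM in the controls (log2 fold change -0.55 ± 0.064, limma adjusted p 8.7e-05). The groups were far apart for these 3 genes relative to their spread. PSMG3 differed least, with 51.2, 49.1 and 51.2 FPKM in the knockdown libraries, against 57.9, 52.5 and 55.8 FPKM in the controls; it passed narrowly (log2 fold change -0.13 ± 0.048, limma adjusted p 0.036) and missed the threshold when any library other than control 2 was left out, without the filter on low values and under median scaling. The 4 core chaperones summed to 159, 158 and 161 FPKM in the knockdown libraries, against 226, 223 and 229 FPKM in the controls, a ratio of 0.706, and their median log2 fold change was -0.57, against 0.012 over all tested genes. Both pairs of dimer partners were unequal in level, with PSMG1 above PSMG2 and PSMG3 above PSMG4 in every library.

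Of the base chaperones, PSMD5 had 28.9, 27.3 and 24.9 FPKM in the knockdown libraries, against 20.1, 17.5 and 19.5 FPKM in the controls and rose (log2 fold change 0.49 ± 0.073, limma adjusted p 0.0004). PSMD10, also called gankyrin, had 62.2, 63.9 and 66.6 FPKM in the knockdown libraries, against 56.8, 58.9 and 59.4 FPKM in the controls; its small rise (log2 fold change 0.14 ± 0.042, limma adjusted p 0.018) missed the threshold without knockdown replicate 3 (adjusted p 0.067). PSMD9 had 68.6, 58.4 and 56.8 FPKM in the knockdown libraries, against 56.3, 48.0 and 57.7 FPKM in the controls, with overlapping groups, and did not pass (log2 fold change 0.18 ± 0.090, limma adjusted p 0.1). Their summed level was 1.16 times that of the controls. POMP, which is not named PSM but matures the core, rose (log2 fold change 0.29 ± 0.047, limma adjusted p 0.00059), opposite to the 4 PSMG chaperones. PAAF1, a further chaperone of the base, had 12.1, 11.3 and 12.1 FPKM in the knockdown libraries, against 17.1, 17.2 and 16.9 FPKM in the controls and fell (log2 fold change -0.49 ± 0.052, limma adjusted p 5.5e-05), opposite to PSMD5 and PSMD10.

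**Figure D3:**
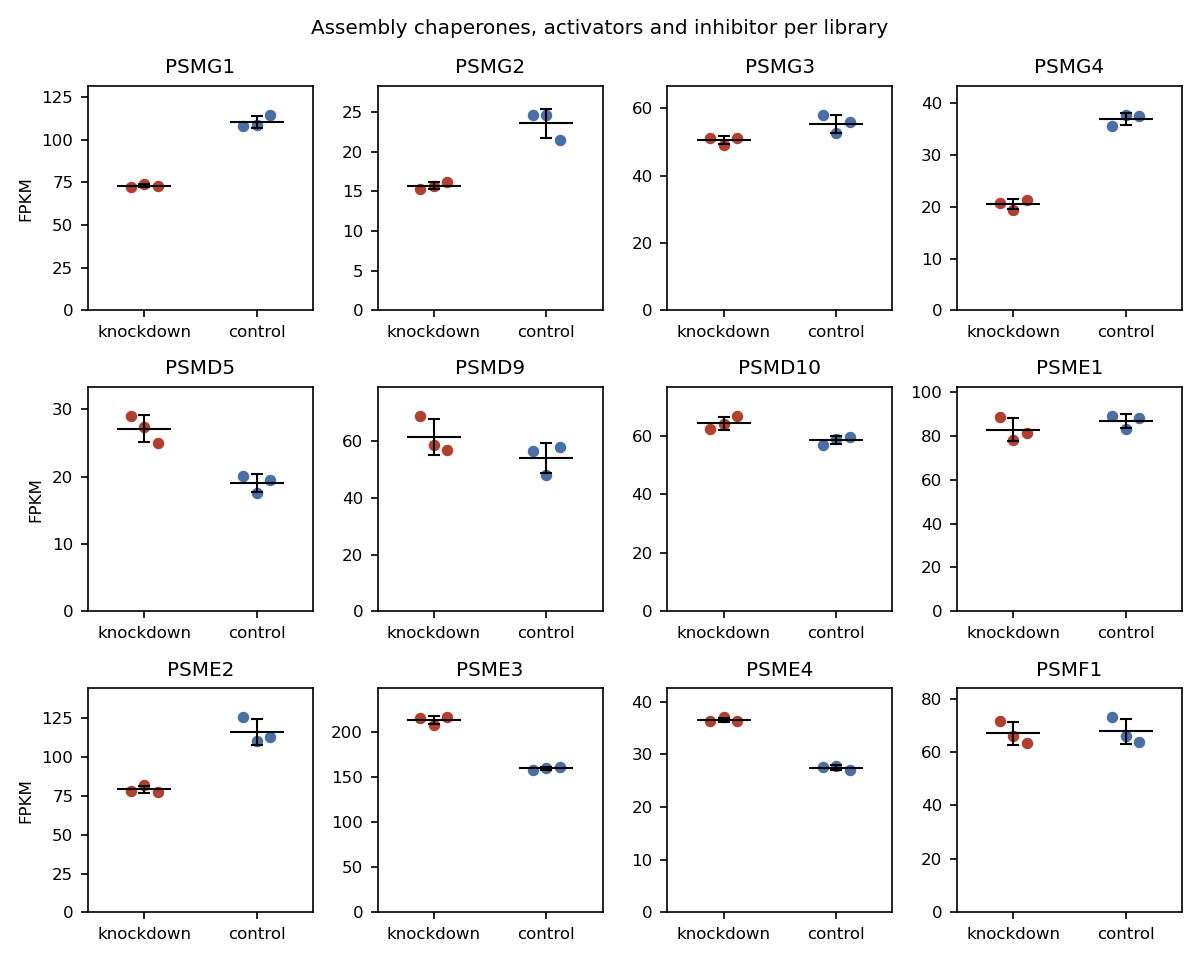
FPKM per library of the 4 core assembly chaperones (PSMG1 to PSMG4), the 3 base assembly chaperones (PSMD5, PSMD9 and PSMD10), the 4 activator subunits (PSME1 to PSME4) and the inhibitor PSMF1; points are libraries, horizontal lines are means and bars are ± 1 SD, n = 3 per group. Knockdown libraries lie below the controls for each core chaperone and for PSME2, above them for PSMD5, PSMD10, PSME3 and PSME4, and overlap them for PSMD9, PSME1 and PSMF1.

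The activators did not move one way: of 4 tested genes 2 rose, 1 fell and 1 did not pass. PSME1 and PSME2 together form the interferon-inducible cytoplasmic activator, and of this pair PSME2 fell and PSME1 did not pass. PSME2 had 78.2, 81.9 and 77.4 FPKM in the knockdown libraries, against 126, 110.4 and 113 FPKM in the controls (log2 fold change -0.55 ± 0.055, limma adjusted p 3.9e-05). PSME1 had 88.6, 78.2 and 81.3 FPKM in the knockdown libraries, against 88.8, 83.1 and 87.9 FPKM in the controls; the groups overlapped and the difference was small (log2 fold change -0.067 ± 0.054, limma adjusted p 0.29). The partners were thus near equal in the knockdown libraries, while PSME2 exceeded PSME1 in every control library. PSME3, which forms the nuclear activator ring, had 215, 208 and 217 FPKM in the knockdown libraries, against 158, 160.0 and 162 FPKM in the controls and rose (log2 fold change 0.41 ± 0.033, limma adjusted p 1.1e-05). PSME4, a large single-chain nuclear activator, had 36.3, 37.0 and 36.3 FPKM in the knockdown libraries, against 27.7, 27.8 and 27.0 FPKM in the controls and rose by a similar amount (log2 fold change 0.40 ± 0.040, limma adjusted p 4.2e-05). The spread within each group was small for both nuclear activators. PSMF1, which inhibits the core in vitro, had 71.7, 65.8 and 63.5 FPKM in the knockdown libraries, against 73.0, 66.1 and 63.9 FPKM in the controls, with no separation of the groups (log2 fold change -0.013 ± 0.064, limma adjusted p 0.86).

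Among the ATPases of the base, 4 of 6 rose, 1 fell and 1 did not pass, and their median change was 0.30 (log2). PSMC4 (ENSG00000013275; hg19 chromosome 19, 40476911 to 40487348) had 211, 205 and 201 FPKM in the knockdown libraries, against 122, 115 and 114 FPKM in the controls. It was 1.75 times as high in the mean (log2 fold change 0.80 ± 0.040, limma adjusted p 9.3e-07), the largest rise of any member. PSMC3 went the other way, with 125, 109 and 119 FPKM in the knockdown libraries, against 195, 175 and 183 FPKM in the controls (log2 fold change -0.64 ± 0.061, limma adjusted p 2.9e-05). PSMC4 and PSMC3 sit in the same ring of the base, and their order of level differed between the groups: PSMC4 was above PSMC3 in every knockdown library and below it in every control. PSMC6 (0.37) and PSMC2 (0.23) also rose. PSMC5 had 117, 117 and 115 FPKM in the knockdown libraries, against 116, 109.9 and 108 FPKM in the controls and did not pass (log2 fold change 0.066 ± 0.038, limma adjusted p 0.15), although it did without control replicate 1 (adjusted p 0.037).

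PSMC1 (ENSG00000100764) rose as well, but its row cannot be read alone. PSMC1 had 55.7, 54.9 and 55.0 FPKM in the knockdown libraries, against 35.1, 34.3 and 34.4 FPKM in the controls (log2 fold change 0.66 ± 0.037, limma adjusted p 1.7e-06). PSMC1P1, a processed pseudogene listed on hg19 chromosome 3 at 68684855 to 68686175, had 181, 181 and 179.9 FPKM in the knockdown libraries, against 118, 112 and 119 FPKM in the controls (log2 fold change 0.63 ± 0.037, limma adjusted p 2.0e-06). The pseudogene row thus stood above the gene's own row in all 6 libraries, by a ratio of 3.25 to 3.46 per length, and changed almost in parallel with it. In the GENCODE 29 transcripts the 1320 bases of PSMC1P1 align to the 1323-base coding sequence of PSMC1 without an internal gap and with 1 difference, T885A, written as the base of PSMC1, the position counted from 1 at the first base of the start codon, and the base of PSMC1P1. This changes codon 295 of 441 from TAT, for tyrosine, to the stop codon TAA. The 120 bases around that position (825 to 944) are shown because they hold the only base at which the aligned copies differ; the differing base is in capitals.
PSMC1: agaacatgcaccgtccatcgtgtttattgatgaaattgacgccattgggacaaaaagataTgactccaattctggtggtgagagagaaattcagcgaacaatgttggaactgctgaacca
PSMC1P1: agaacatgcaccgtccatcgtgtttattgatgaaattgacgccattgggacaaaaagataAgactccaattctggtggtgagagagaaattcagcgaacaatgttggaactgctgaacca
Fragments from other parts of the coding sequence match both places equally, so how many belong to each depends on how the authors' software assigned them. Both rows added gave 237, 235 and 235 FPKM in the knockdown libraries, against 153, 146 and 153 FPKM in the controls, a ratio of 1.56. FPKM scales each row to its own length, so this sum is not a level of PSMC1. The annotated PSMC1 transcript is 4448 bases long, so a share of its fragments comes from bases that PSMC1P1 does not hold. Of 32 pseudogenes of PSM genes named in GENCODE 29, all were rows of the table and 2 reached a mean of 1 FPKM, PSMC1P1 being by far the higher.

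**Figure D4:**
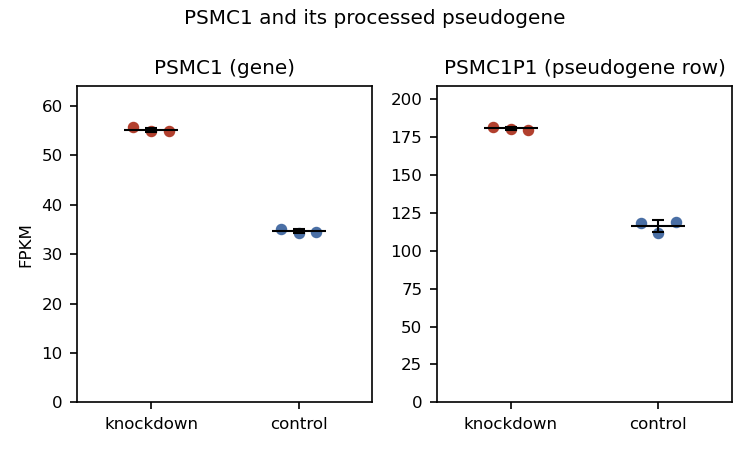
FPKM per library of PSMC1 (left) and of its processed pseudogene PSMC1P1 (right); points are libraries, horizontal lines are means and bars are ± 1 SD, n = 3 per group. Both rows are higher after knockdown, and the pseudogene row is the higher of the pair in every library.

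The remaining base subunits rose or did not pass. PSMD2, a large scaffold that receives ubiquitin-like domains, had 427, 422 and 448 FPKM in the knockdown libraries, against 323, 294 and 305 FPKM in the controls (log2 fold change 0.49 ± 0.045, limma adjusted p 2.2e-05). PSMD4, a receptor for ubiquitin chains, had 165, 164 and 166 FPKM in the knockdown libraries, against 123, 116 and 117 FPKM in the controls (log2 fold change 0.47 ± 0.036, limma adjusted p 8.8e-06). PSMD1, the other large scaffold, had 60.6, 61.3 and 59.9 FPKM in the knockdown libraries, against 58.2, 58.1 and 59.9 FPKM in the controls; the groups came as close as 59.90 FPKM in knockdown 3 and 59.85 FPKM in control 3, and the difference did not pass (log2 fold change 0.044 ± 0.037, limma adjusted p 0.3). PSMD1 was thus at about the same level in both groups while PSMD2 exceeded it several-fold in each library. ADRM1, another ubiquitin receptor of the cap, rose slightly (log2 fold change 0.19 ± 0.055, limma adjusted p 0.015). It missed the threshold without knockdown replicate 1, control replicate 2 or control replicate 3, with limma adjusted p of 0.056, 0.052 and 0.057.

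The lid was split, with 3 of 8 genes higher, 4 lower and 1 that did not pass. PSMD8 (ENSG00000099341), a structural lid subunit, had 112, 112 and 109 FPKM in the knockdown libraries, against 198, 180.1 and 200.4 FPKM in the controls, the largest fall of the cap (log2 fold change -0.79 ± 0.047, limma adjusted p 2.1e-06). PSMD7, the inactive partner of the lid's deubiquitinase, had 74.0, 78.4 and 70.3 FPKM in the knockdown libraries, against 112, 105 and 113 FPKM in the controls and fell (log2 fold change -0.56 ± 0.051, limma adjusted p 2.3e-05). PSMD14, the deubiquitinase itself, had 111, 115 and 111 FPKM in the knockdown libraries, against 97.2, 101 and 103 FPKM in the controls and rose slightly (log2 fold change 0.16 ± 0.038, limma adjusted p 0.0052). The enzyme and its partner therefore moved in opposite directions, and PSMD14 was above PSMD7 in every knockdown library and below it in every control. PSMD13 fell, with 39.6, 47.2 and 49.2 FPKM in the knockdown libraries, against 63.7, 62.5 and 65.7 FPKM in the controls; knockdown 1 was the lowest (log2 fold change -0.49 ± 0.077, limma adjusted p 0.0005). PSMD3 also fell (-0.17), while PSMD12 (0.45) and PSMD6 (0.42) rose. PSMD11 had 93.1, 90.5 and 92.0 FPKM in the knockdown libraries, against 89.0, 86.4 and 90.1 FPKM in the controls and did not pass (log2 fold change 0.053 ± 0.036, limma adjusted p 0.22). At the locus listed for PSMD6, the antisense RNA PSMD6-AS2 was at 3.92, 4.07 and 3.82 FPKM in the knockdown libraries, against 1.30, 1.67 and 0.952 FPKM in the controls (log2 fold change 1.11 ± 0.13, limma adjusted p 9.1e-05). The kit keeps strand, but the strand setting of the authors' counting was not given in the sources used here, and the antisense and PSMD6 rows may share reads.

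In the alpha ring 4 of 7 tested genes rose, 2 fell and 1 did not pass; the median change was 0.26 (log2), and 0.14 without the filter, which adds PSMA8. PSMA2 (ENSG00000106588) had 110.2, 114 and 115 FPKM in the knockdown libraries, against 75.1, 79.7 and 75.4 FPKM in the controls, the largest rise of the ring (log2 fold change 0.55 ± 0.040, limma adjusted p 6.1e-06). PSMA3 (0.40), PSMA1 (0.37) and PSMA4 (0.26) rose by less. PSMA5 had 70.3, 73.3 and 76.2 FPKM in the knockdown libraries, against 95.6, 90.3 and 95.0 FPKM in the controls and fell (log2 fold change -0.35 ± 0.044, limma adjusted p 0.00015). PSMA7, the most abundant alpha gene, fell slightly (-0.20). PSMA6 had 127, 135 and 135 FPKM in the knockdown libraries, against 123, 132 and 135 FPKM in the controls, overlapping groups and no call (log2 fold change 0.024 ± 0.046, limma adjusted p 0.66). PSMA8, known as the testis form, was listed at 0 in 5 libraries and at 0.0287 FPKM in knockdown 3, and was not tested. Subunits that enter each ring in equal number were unequal in mRNA: the means of the 7 tested alpha genes ranged over 73.3 to 305 FPKM in the knockdown libraries and 76.7 to 349.9 FPKM in the controls.

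The non-catalytic beta genes were divided too. PSMB1 (0.31) and PSMB2 (0.29) rose, and PSMB3 (-0.36) and PSMB4 (-0.22) fell. PSMB4, whose protein is among the last to join the beta ring, was the most abundant member, with 467, 459 and 454 FPKM in the knockdown libraries, against 562, 521 and 528 FPKM in the controls. PSMB3 had 132, 127 and 128 FPKM in the knockdown libraries, against 175, 156 and 167 FPKM in the controls, with no overlap (log2 fold change -0.36 ± 0.048, limma adjusted p 0.00022). All 7 constitutive beta genes passed, 3 higher and 4 lower, with a median of -0.19.

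Set beside each other, the core (PSMA and PSMB) had 7 genes that rose and 9 that fell of 17 tested (median -0.19 on the log2 scale, but 0.014 without the filter, which adds PSMA8 and PSMB11), and the cap subunits (PSMC and PSMD without the 3 chaperones) had 9 that rose and 5 that fell of 17, with a median of 0.16. The shares higher and lower were 41.2% and 52.9% in the core and 52.9% and 29.4% in the cap. Among all tested genes they were 37% and 35.4%. Leaving aside the immuno subunits, the constitutive core had 7 that rose and 6 that fell of 14, with a median of 0.14. That median lay midway between PSMA6 (0.024, not passed) and PSMA4 (0.26), and it would be lower with PSMA8, which the filter leaves out. Its nearness to the median of the cap therefore depends on the filter. Summed per role, the immuno subunits had 86.8, 81.7 and 75.8 FPKM in the knockdown libraries, against 172, 152 and 166 FPKM in the controls (ratio 0.498). The other base subunits (PSMD1, PSMD2 and PSMD4) had the highest ratio, 1.36, mostly through PSMD2. The summed ratio was 1.13 for the ATPases, 1.06 for the alpha ring, 0.981 for the constitutive beta ring and 0.911 for the lid. No test was run on these classes, so their counts, medians and sums are descriptions and do not show that core and cap differ in direction.

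**Figure D5:**
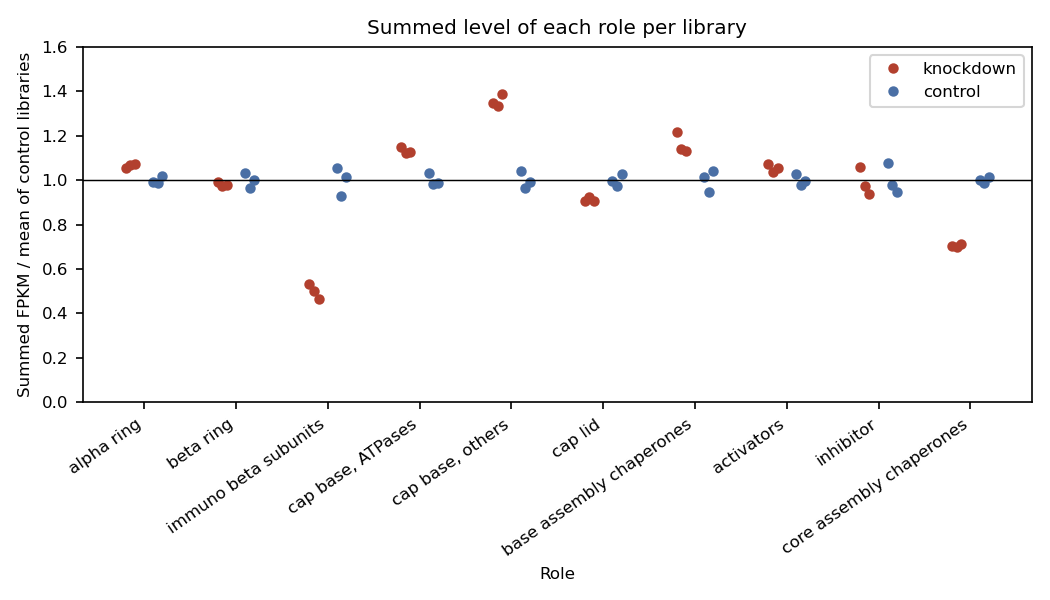
Summed FPKM of each role in each library, divided by the mean of the 3 control libraries; red points are knockdown libraries, blue points are controls, and the line marks 1. The immuno subunits lie near 0.50 and the core assembly chaperones near 0.71 after knockdown, while the alpha and beta rings, the lid and the activators stay within about 10% of the controls.

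Genes that work with the proteasome were read from lists of 36 genes, of which all were tested, 15 rose, 12 fell and 9 did not pass (median -0.025 on the log2 scale). Among all tested genes 72.4% passed, with 37% higher and 35.4% lower, so these counts are near the background. The counts of the shorter lists within the 36 genes are to be read against the same shares and are not results about those lists. Of 11 further proteasome genes 5 rose and 3 fell; of those that did not pass, SHFM1, a small lid subunit, passed with the replicate block (limma adjusted p 0.032) and KIAA0368 under median scaling (0.027) and without control replicate 2 (0.033). PITHD1, whose PITH domain is shared with the proteasome-binding protein TXNL1, had 90.5, 90.6 and 89.9 FPKM in the knockdown libraries, against 34.5, 34.6 and 38.4 FPKM in the controls (log2 fold change 1.31 ± 0.050, limma adjusted p 2.7e-07). UBE3C, a ubiquitin ligase that acts at the proteasome, had 55.1, 57.6 and 57.3 FPKM in the knockdown libraries, against 26.7, 28.2 and 30.0 FPKM in the controls (log2 fold change 0.98 ± 0.052, limma adjusted p 1.2e-06). The 2 deubiquitinases that trim chains on the cap both fell. USP14 had 32.2, 33.5 and 34.7 FPKM in the knockdown libraries, against 47.7, 52.9 and 54.9 FPKM in the controls (log2 fold change -0.61 ± 0.060, limma adjusted p 3.4e-05), and UCHL5 had 41.2, 47.1 and 42.4 FPKM in the knockdown libraries, against 61.5, 64.1 and 59.7 FPKM in the controls (log2 fold change -0.50 ± 0.058, limma adjusted p 9.7e-05). With PSMD14 slightly higher, the 3 deubiquitinases of the cap did not move one way.

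Among 10 genes of substrate delivery and unfolding, 4 rose and 5 fell, including 2 narrow calls: NPLOC4 (higher) missed the threshold when any library other than knockdown 2 was left out, and UBQLN2 (lower) when any library was. RAD23B, a shuttle that carries ubiquitinated proteins to the cap, had 50.9, 54.1 and 52.1 FPKM in the knockdown libraries, against 111, 118 and 121 FPKM in the controls (log2 fold change -1.14 ± 0.045, limma adjusted p 3.3e-07). UBQLN4, another shuttle, had 20.8, 20.7 and 21.6 FPKM in the knockdown libraries, against 30.4, 30.2 and 32.4 FPKM in the controls (log2 fold change -0.54 ± 0.048, limma adjusted p 2.0e-05). ZFAND2A, a stress-inducible zinc finger protein that binds the proteasome, had 11.5, 13.4 and 13.1 FPKM in the knockdown libraries, against 7.55, 8.55 and 7.28 FPKM in the controls (log2 fold change 0.63 ± 0.082, limma adjusted p 0.00017). The groups of these 3 genes did not overlap. The shuttles were not uniform, since UBQLN1 rose slightly (log2 fold change 0.16 ± 0.038, limma adjusted p 0.0058). VCP, the unfolding ATPase, did not pass (log2 fold change -0.047 ± 0.036, limma adjusted p 0.28). Of 5 ubiquitin and E1 genes 1 rose and 2 fell, none by more than 0.23, and UBA1, which did not pass, did so with sample quality weights (limma adjusted p 0.045) and without control replicate 1 (0.014).

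The 6 genes of proteasome gene control and nuclear import mostly rose. NFE2L1, which induces proteasome genes when the proteasome is inhibited, had 121, 108 and 111 FPKM in the knockdown libraries, against 71.0, 80.8 and 79.9 FPKM in the controls (log2 fold change 0.55 ± 0.064, limma adjusted p 9.7e-05). MAFK, a small partner of NFE2L1 and NFE2L2 on DNA, had 12.7, 12.5 and 12.3 FPKM in the knockdown libraries, against 6.88, 6.19 and 6.09 FPKM in the controls (log2 fold change 0.87 ± 0.065, limma adjusted p 6.8e-06). Rises were also found for the partner MAFG (0.48), for NFE2L2 (0.40) and for AKIRIN2 (0.43), which carries proteasomes into the nucleus. NGLY1, which removes sugars from NFE2L1 so that it can act, fell (-0.32). The list thus had 5 rises and 1 fall, where 37% of all tested genes were higher. It is short and was chosen with earlier results known, so these counts are not a result about regulators as a group. Genes listed elsewhere could have been placed here: DDI2, listed with substrate delivery, fell (log2 fold change -0.31 ± 0.079, limma adjusted p 0.0076).

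NFE2L1 and NFE2L2 bind the antioxidant response element, whose core was searched as TGACNNNGC on both strands of the same promoter windows. It was present for 15 of 42 members (35.7%), against 16.1% of all 27305 genes. That comparison set is unlike the members, since it includes genes not tested here and was not matched for windows per gene or base content. By direction, 5 of 17 members that rose held a match (PSMA4, PSMC4, PSMD5, PSMD12 and PSME4), as did 6 of 16 that fell (PSMB3, PSMB9, PSMD3, PSME2, PSMG1 and PSMG2) and 4 of 7 that did not pass. No test was run on these counts, and here too a match is not binding. Whether NFE2L1 or NFE2L2 had a part in the changes of the members was not tested. A stretch from one that rose and one that fell is shown for comparison, with the match in capitals, on GRCh38.p14 and on the strand of the gene.
PSMD12, which rose (chr17:67366694-67366782, minus strand): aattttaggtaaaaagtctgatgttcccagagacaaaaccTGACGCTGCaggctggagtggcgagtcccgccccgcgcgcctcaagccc
PSMG1, which fell (chr21:39183586-39183674, minus strand): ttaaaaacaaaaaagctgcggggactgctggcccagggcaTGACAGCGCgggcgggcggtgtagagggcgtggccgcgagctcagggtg
The CCAAT box, searched the same way, was found for 20 of 42 members (47.6%), 9 of 17 that rose and 9 of 16 that fell, against 39.7% of all genes in the same unmatched set.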

How the data were processed

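The deposited table holds FPKM values made by the authors, 1 column per library, per the file headers. The submitters' processing notes name TopHat 1.4.1, Cuffdiff 2.2.0 and hg19, with no order or role. The annotation, any filter and any scaling were not given in the sources used here. A stranded mRNA kit was used on 1 ug of total RNA, and fragments were read as paired ends of 100 bases, per the labels' protocols. FPKM is relative to the library total, so abundant genes that change shift the others. The 57150 gene rows were used and 1 blank row was left out.

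The 13343 genes averaging 1 FPKM or more were fitted as log2(FPKM + 1) with limma 3.58.1 in R 4.3.3 (moderated test with mean-variance trend, two-sided, Benjamini-Hochberg over all tested genes, threshold 0.05). The scale understates changes of weak genes. Ratios are of mean or summed FPKM. The fit was tested on simulated data. No count model was used, since FPKM are not counts, and no counting interval can be given at unknown depth. Loci are hg19 as deposited; 22 of the 46 tested members share their listed locus with another expressed gene, so loci can be wider than the gene. Promoters are RefSeq GRCh38.p14 and transcripts GENCODE 29, aligned with Biopython 1.88. Values per library are given for all members changed by at least 0.5, the catalytic, immuno, activator and chaperone members, and the extremes of each role; of the other listed genes, the 4 largest called changes in each direction are named, and further ones were chosen after their values were seen. The members and lists were chosen with earlier results of these data known, and some listed genes are not reported here. Refits used each library left out in turn, median scaling, a pseudocount of 0.1, the low-value filter dropped or set at 5 FPKM, quality weights per sample, or a replicate block.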

Additional observations from a re-analysis of the deposited data

How the results depend on the processing

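Over the 12 refits the members numbered 19 to 21 higher and 18 to 19 lower, and no called member changed direction. PSMG3 missed the threshold in 7 refits, with adjusted p from 0.015 to 0.12 over all of them, PSMD10 in 1 and PSMC5 gained a call in 1, as given beside their values. With 1 library left out, the number of base chaperones called higher ranged from 1 to 2. Signs turned for genes that never passed: PSMF1 was 0.015 under median scaling, 0.0036 with sample quality weights and -0.063 to 0.042 with a library left out, and UBLCP1 was 0.012 under median scaling. With a library left out, PSMA6 ranged from -0.014 to 0.052, UBLCP1 from -0.075 to 0.065, IRF1 from -0.13 to 0.058 and NLRC5 from -0.11 to 0.029. For all of these the cause was not tested. The 3 immuno to constitutive ratios stayed negative in all 7 alternatives each, from -0.75 to -0.68 for PSMB8/PSMB5, -1.91 to -1.83 for PSMB9/PSMB6 and -0.91 to -0.65 for PSMB10/PSMB7. The two-sided exact permutation p stayed at 0.1 for PSMB8/PSMB5 and PSMB9/PSMB6 but reached 0.2 for PSMB10/PSMB7. The labels do not say whether equal replicate numbers pair the libraries. Deviations of same-numbered libraries correlated at -0.027, -0.067 and 0.024, and 1 of 6 libraries correlated best with its own number. With the replicate block, 4971 genes were higher and 4773 lower, against 4937 and 4730 without it, and the members numbered 20 higher and 19 lower in both. Summing rows of a repeated symbol was not run, since no member symbol is repeated. The depth is unknown, so no limit can be set for the members listed at 0.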

Other observations

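Counted by chromosome, whatever the distance between them, the members did not share a direction throughout. Chromosome 14 holds 8 of them: of 7 tested there, 3 rose, 2 fell and 2 did not pass. PSME1 and PSME2, listed next to each other on that chromosome, had log2 fold changes of -0.067 (not passed) and -0.55. Chromosome 17 holds 7, of which 3 rose, 2 fell and 2 did not pass. PSMD4 and PSMB4, listed close to each other on chromosome 1, moved in opposite directions, at 0.47 and -0.22. Both members on chromosome 16, PSMB10 and PSMD7, fell. On chromosome 6, PSMB8, PSMB9 and PSMG4 fell and PSMB1 rose, and PSMB8 and PSMB9 share a listed locus.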
